A study of Mus musculus with 4 samples.

Results

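Sialyltransferases are Golgi enzymes that cap glycans with sialic acid, the sugar that Siglec receptors read. The 10 sialyltransferase genes described here are St3gal1, St3gal2, St3gal3, St3gal4, St3gal5 and St3gal6, which form alpha2,3 linkages, St6gal1, which forms alpha2,6 linkages, and St8sia1, St8sia4 and St8sia6, which form alpha2,8 linkages. They were chosen by name as enzymes that can build Siglec ligands, and all 10 were found among the 17300 genes of the deposited table. Total RNA from dendritic cells sorted from mouse spleen was sequenced in 4 libraries, 2 labelled KO and 2 labelled WT. The labels give only the genotype words KO and WT, with EKO in the KO titles, and name no deleted gene, strain, age, sex or treatment. The table's column names begin with Allo, a word the sources used here do not explain. The KO columns carry other numbers than the KO titles, so they are called KO A and KO B, while the WT columns match the titles WT_1 and WT_2. The labels do not say whether libraries of a group stem from separate animals. The p-values reflect a spread between libraries that may be technical only in WT, while KO A and KO B differed in Y-linked RNA, as given below.

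Siglecs are sialic acid-binding lectins of white blood cells, and many of them carry inhibitory motifs that dampen activation when a ligand is bound. Each sialyltransferase joins sialic acid in a given linkage to a preferred acceptor, such as galactose at the end of an N-glycan, the core of an O-glycan, a glycolipid, or another sialic acid. The set of these enzymes that a cell makes is therefore one of the determinants of which Siglec ligands it can display on itself or to its neighbours. Siglec-E, the receptor named in the series title, is an inhibitory receptor of myeloid cells, and glycans with alpha2,8-linked disialic acid are among its ligands.

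Siglece, the gene of Siglec-E, was at 8.92 and 8.96 in KO against 10.38 and 10.14 in WT, lower in both libraries labelled KO. In KO A the Y-linked gene Ddx3y was at 64.5 normalized counts, against 3102 to 3979 elsewhere. Normalized counts summed to between 29002408 and 30952251 per library, after the authors' scaling, so they do not give the depth in reads.

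KO was set against WT to ask which of these enzymes' mRNAs differ between the genotypes in sorted dendritic cells. St8sia6 fell and St3gal6 rose in the KO libraries, and the other 8 genes did not pass the test. St8sia6 was 2.51-fold lower and St3gal6 2.78-fold higher in mean normalized counts. Across all 11864 genes tested, 6.93% passed (4.69% as higher and 2.23% as lower). With 1 of 10 higher and 1 of 10 lower, the family's counts rest on a single gene in each direction. The median difference over the 10 genes was 0.0028 on the log2 scale, beside -0.0017 over all genes tested. Both KO libraries lay on 1 side of both WT libraries in 6 of the 10 genes against 56.2% of all genes tested, so that share is near the background. These were 2 higher (28.1% of all genes tested) and 4 lower (28.2%). An unadjusted p under 0.05 was found for 5 of the 10, against 24.7% of all genes tested. All 10 genes were above the filter on low values in both groups.

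Values are deposited log2 values of a variance-stabilizing transform, in which the lowest value of the table is 8.04 and low genes are compressed. The fold of a weak gene is therefore larger than its log2 difference shows, and normalized counts obtained by undoing the transform are given beside it. The standard error (SE), 95% interval and adjusted p come from limma's moderated test fitted to all 11864 genes.

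**Figure D1:**
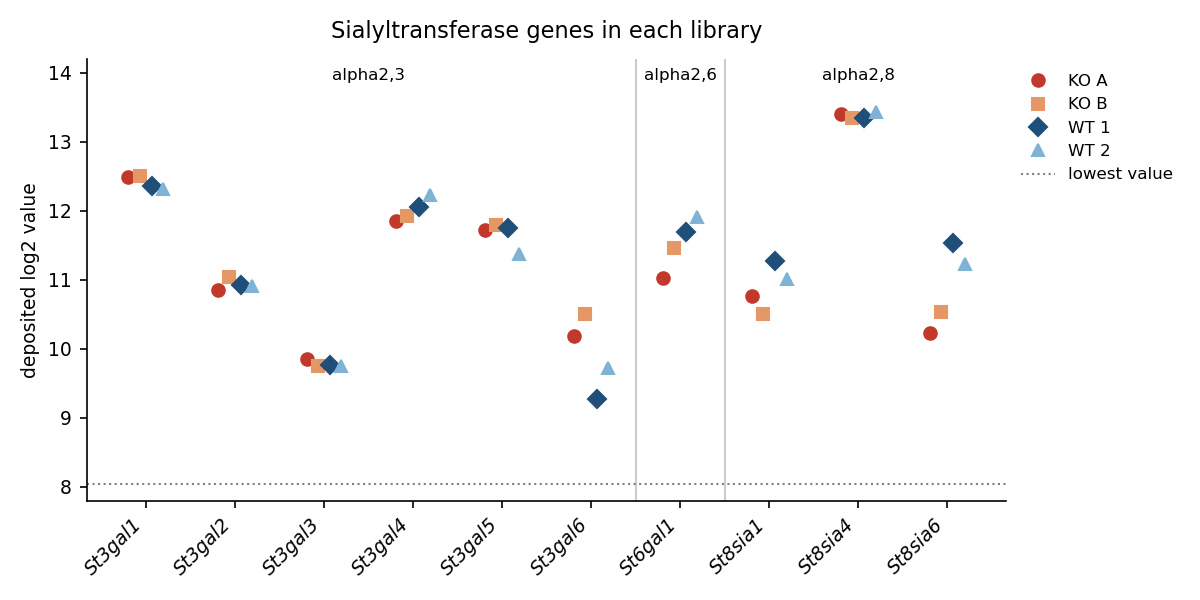
Deposited log2 value (vertical axis) of each of the 10 sialyltransferase genes (horizontal axis, grouped by linkage) in KO A, KO B, WT 1 and WT 2, 1 point per library, with a dotted line at the lowest value of the table, 8.04. The KO and WT points are apart for St3gal6 (10.19 and 10.51 against 9.27 and 9.72) and St8sia6 (10.23 and 10.54 against 11.53 and 11.24), while those of St8sia4 lie between 13.35 and 13.43.

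Among the alpha2,8 enzymes, St8sia6 (ENSMUSG00000003418) adds sialic acid to sialic acid, mainly on O-glycans, and makes the short disialic acid structures that Siglec-E can bind. WT 1 and WT 2 stood at 11.53 and 11.24 on the log2 scale, and KO A and KO B at 10.23 and 10.54. Both KO libraries were below both WT libraries, and the nearest pair, KO B and WT 2, was 0.70 apart. The gene fell by 0.998 (SE 0.144, 95% interval -1.34 to -0.65, adjusted p = 0.0211), from 2458 and 1914 normalized counts in WT to 735 and 1009 in KO. Among all genes tested, 98.9% had a smaller absolute difference, and the gene stood at place 179 by p. Leaving out a KO library ended the call (adjusted p = 0.0777 with KO A left out, 0.0851 with KO B left out), as it did for nearly all calls in the table: 0 and 3 of 11864 genes then passed in limma, with 2508 and 2448 at an unadjusted p under 0.05. The difference itself was -0.84 without KO A and -1.15 without KO B.

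St8sia1, which makes the disialylated ganglioside GD3 from GM3, had log2 values of 11.28 (WT 1) and 11.02 (WT 2) against 10.76 (KO A) and 10.51 (KO B). The groups did not overlap, with KO A and WT 2 only 0.25 apart. The difference of -0.51 (SE 0.131, 95% interval -0.83 to -0.20) did not pass (adjusted p = 0.0687), and the mean count was 1114 in KO against 1784 in WT. Without WT 2 it passed, with a difference of -0.65 (adjusted p = 0.0282).

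St8sia4, a polysialyltransferase that builds the long alpha2,8 chains carried by neuropilin-2 and by the chemokine receptor CCR7 on dendritic cells, was level between the groups. The KO libraries had log2 values of 13.40 (KO A) and 13.35 (KO B), and the WT libraries 13.35 (WT 1) and 13.43 (WT 2). The difference was -0.02 (95% interval -0.21 to 0.17, adjusted p = 0.906), so differences larger than about 0.21 in either direction lay outside the interval. Of these 2 carriers, Nrp2 was at 10.01 and 10.22 in KO against 10.16 and 10.10 in WT. Ccr7 was at 10.70 and 11.23 in KO against 10.70 and 10.97 in WT. Neither passed (adjusted p = 0.964 for Nrp2 and 0.710 for Ccr7), and the groups overlapped in both. Ncam1, also among the listed carriers of sialylated glycans, was at 10.01 and 10.56 in KO against 9.95 and 9.47 in WT. It was higher in both KO libraries without passing (difference 0.58, adjusted p = 0.168).

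Among the alpha2,3 enzymes, St3gal6 (ENSMUSG00000022747) sialylates galactose of N-acetyllactosamine chains and takes part in making sialyl Lewis x, a selectin ligand. WT 1 and WT 2 stood at 9.27 and 9.72 on the log2 scale, below KO A and KO B at 10.19 and 10.51. Both KO libraries were above both WT libraries, and WT 1 was the lowest. The gene rose by 0.85 (SE 0.174, 95% interval 0.43 to 1.27, adjusted p = 0.0411), from 205 and 400 normalized counts in WT to 704 and 978 in KO. The call sat near the threshold. It ended with quantile normalization (difference 0.84, adjusted p = 0.0544), and on log2 of the count plus 1 (difference 1.53, adjusted p = 0.0543). Leaving out KO A or KO B also ended it, at an adjusted p of 0.0904 and 0.172. Without WT 1 the difference was 0.63 (adjusted p = 0.0491). An exon of Dcbld2 on the opposite strand shares positions with St3gal6 in the annotation used for names, and whether the authors' counting used strand is not given in the sources used here. Dcbld2 was at 10.62 and 10.64 in KO against 10.86 and 10.88 in WT, lower in both KO libraries where St3gal6 was higher (difference -0.25, adjusted p = 0.134). For St3gal4, St6gal1, St8sia1 and St8sia6 an opposite-strand gene also shares exon positions, and without strand the reads of such partners cannot be told apart.

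St3gal4, which acts on the same kind of chain and has a leading part in selectin ligands of mouse myeloid cells, was at 11.85 and 11.93 in KO against 12.06 and 12.22 in WT. The difference of -0.25 (95% interval -0.47 to -0.03) was opposite in sign to that of St3gal6 and did not pass (adjusted p = 0.162). St3gal3, the remaining enzyme of this type, was at 9.85 and 9.75 in KO against 9.77 and 9.75 in WT, and the groups overlapped (difference 0.04, 95% interval -0.18 to 0.25, adjusted p = 0.835).

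St3gal1, which caps the core of O-glycans on mucin-like proteins, was at 12.49 and 12.50 in KO against 12.36 and 12.31 in WT. The KO libraries were the higher by a small margin (difference 0.16, 95% interval -0.03 to 0.34, adjusted p = 0.264). St3gal2, which acts on the same disaccharide in O-glycans and in gangliosides, was at 10.86 and 11.04 in KO against 10.93 and 10.92 in WT, with WT between the KO values (difference 0.03, 95% interval -0.21 to 0.26, adjusted p = 0.901). St3gal5, the GM3 synthase that opens the ganglioside pathway, was at 11.72 and 11.80 in KO and at 11.75 in WT 1, while WT 2 was lower at 11.37 (difference 0.20, 95% interval -0.12 to 0.52, adjusted p = 0.419). That difference rested on WT 2: it was 0.39 without WT 1 and 0.0050 without WT 2.

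St6gal1, the only alpha2,6 enzyme among the 10, sialylates galactose on N-glycans and makes the ligand of CD22, a Siglec of B cells. The WT libraries had log2 values of 11.70 (WT 1) and 11.91 (WT 2), and the KO libraries 11.03 (KO A) and 11.46 (KO B). Both KO libraries were below both WT libraries, with KO A the lowest. The difference was -0.56 (SE 0.153, 95% interval -0.93 to -0.19), with mean counts of 1958 in KO and 3081 in WT, and did not pass (adjusted p = 0.0826). It was -0.35 without KO A and -0.77 without KO B. St6gal1 is strongly expressed by B cells, and the summed counts of 6 B cell markers are given beside it: WT 1 held 2458, KO B 2271, KO A 1139 and WT 2 1046. Cd22, a B cell Siglec, was lower in both KO libraries without passing (11.01 and 11.68 against 12.39 and 11.78). The part of B cell RNA in the St6gal1 difference was not tested.

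**Figure D2:**
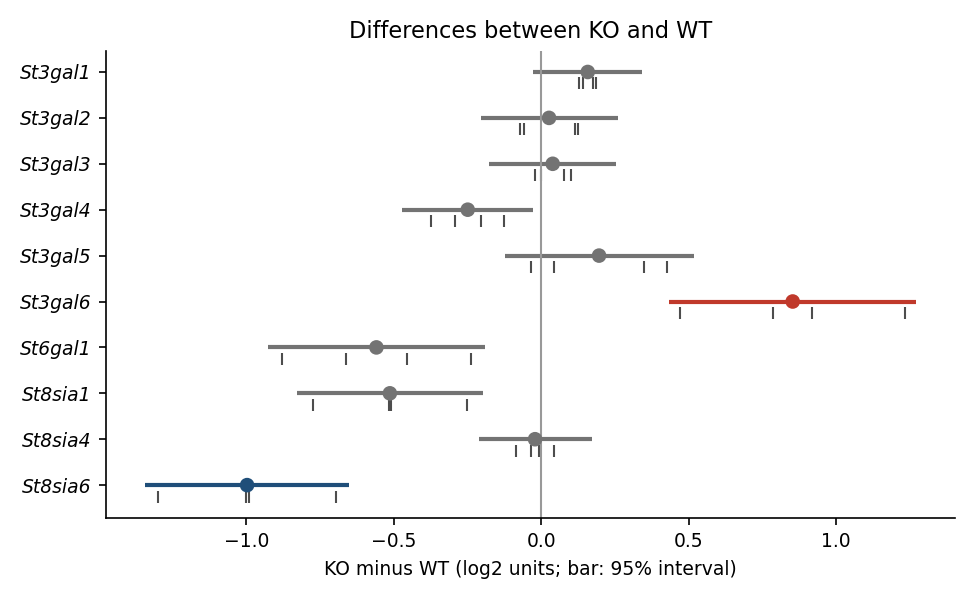
Difference KO minus WT in log2 units (horizontal axis) for the 10 genes (vertical axis), with the limma estimate as a point, its 95% interval as a bar, and the 4 differences between single KO and WT libraries as ticks under it; red marks a gene that passed as higher, blue one that passed as lower, and grey the others. St3gal6 at 0.85 and St8sia6 at -0.998 stand at the ends, and the intervals of St6gal1, St8sia1 and St3gal4 also lie below 0 although none of these passed after adjustment.

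To compare levels between genes, normalized counts were divided by the length of the longest protein-coding transcript of each gene in GENCODE M21. On this scale of counts per kb, St3gal4 was the highest of the 10 in each library, at 1522 and 1622 in KO and 1790 and 2041 in WT. St3gal5 (881 to 1251 over the 4 libraries), St8sia4 (987 to 1052) and St3gal1 (799 to 921) followed, and St3gal5 and St8sia4 changed places in WT 2. St6gal1 (356 to 743) came next in each library, followed by St3gal2 (311 to 368). The lowest 4 places were taken by St3gal3 (163 to 185), St3gal6, St8sia1 (109 to 221) and St8sia6. In both WT libraries St8sia6 led these 4, at 323 and 251 counts per kb, and St3gal6 was last at 49.7 and 97.1. In both KO libraries St3gal6, at 171 and 237, was above St8sia6, at 96.5 and 132. The ratio of St3gal6 to St8sia6 per kb was 1.77 and 1.79 in KO against 0.154 and 0.386 in WT. This pair joins the 2 genes that passed, in opposite directions, so the ratio restates their calls. The places of the genes depend on the length used. The median length of the coding transcripts is 494 bases for St3gal6, in place of 4123. With it, St3gal6 stood at place 3 in both KO libraries and at places 7 and 6 in WT 1 and WT 2. St3gal6 was then above St8sia6 in WT as well, at 415 against 323 in WT 1 and 810 against 251 in WT 2. The change of order between these 2 genes was thus seen only with the longest transcript. St3gal4 remained first in each library.

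**Figure D3:**
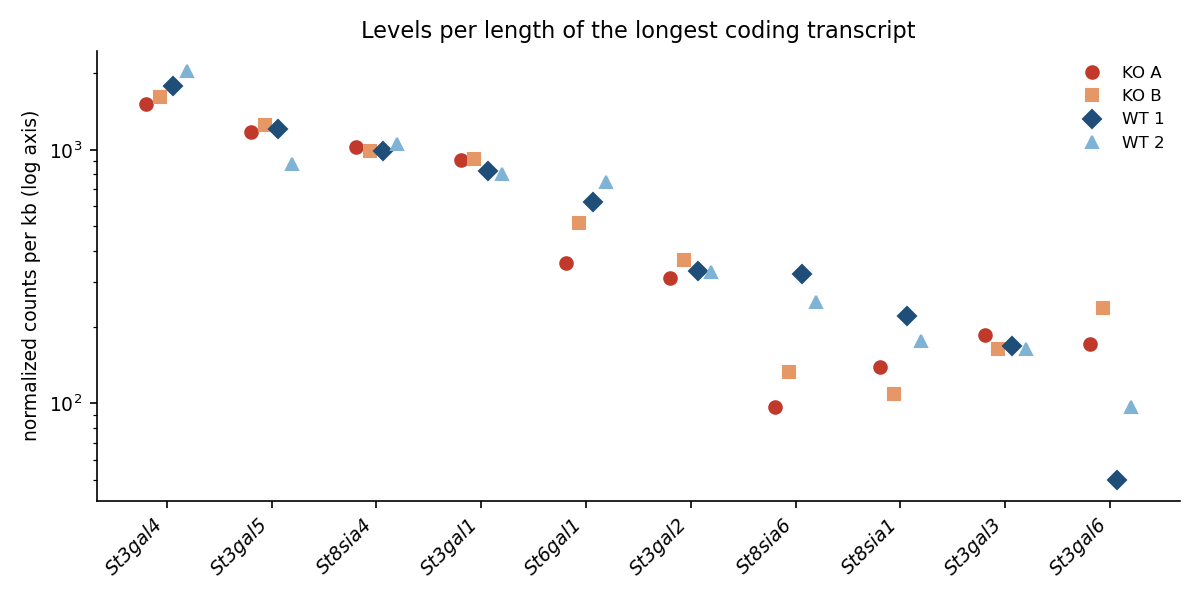
Normalized counts per kb of the longest coding transcript (vertical axis, log scale) of the 10 genes, ordered by their mean in WT (horizontal axis), 1 point per library. St3gal4 is at the top in each library (1522 to 2041), and St3gal6 is lowest in WT (49.7 and 97.1) but not in KO (171 and 237).

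Grouped by linkage and summed per kb, the alpha2,3 genes made up 72.6% and 72.4% of the 10 genes' total in KO A and KO B, against 67.0% and 66.0% in WT 1 and WT 2. The alpha2,6 gene St6gal1 made up 6.04% and 8.13% in KO against 9.55% and 11.4% in WT. The alpha2,8 genes made up 21.4% and 19.5% in KO against 23.5% and 22.6% in WT. Without division by length the shares of the alpha2,8 genes were 44.3% and 41.1% in KO against 46.8% and 45.8% in WT, and those of the alpha2,3 genes 49.9% and 50.9% against 44.0% and 43.3%, so the size of each share depends on the length used. The groups did not overlap for any of these shares, which are tied together because they sum to the whole. Per kb, the alpha2,3 sum itself overlapped, at 4279 and 4563 in KO against 4376 and 4310 in WT. The alpha2,6 and alpha2,8 sums per kb were lower in both KO libraries. Without division by length the alpha2,3 sum did not overlap, at 13838 and 14742 counts in KO against 13536 and 13267 in WT. Together the 10 genes held 0.0895% and 0.0956% of normalized counts in KO and 0.106% and 0.104% in WT.

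Of the 10 genes, 8 had an entry in the RefSeq promoter table (build GRCm38.p6), with 11 transcription starts between them, and St3gal1 and St3gal2 had none. The 250 bases before the start are shown for St3gal6, which rose, for St8sia1 and St6gal1, which were lower in both KO libraries without passing, and for St8sia4, which was level, where the window lies outside annotated exons. For St8sia6 the window lies wholly within an exon in GENCODE M21, and for the nearer start of St3gal6 193 of 250 bases do, so neither is shown. The other 2 starts of St6gal1 also lie outside exons, and the start shown was picked, after the matches were seen, as the one that held a motif. Sequences run 5′ to 3′ on the gene's strand and end at the base before the start; capitals mark motif matches on either strand.
St3gal6 farther start (chr16:58524254-58524503, minus strand): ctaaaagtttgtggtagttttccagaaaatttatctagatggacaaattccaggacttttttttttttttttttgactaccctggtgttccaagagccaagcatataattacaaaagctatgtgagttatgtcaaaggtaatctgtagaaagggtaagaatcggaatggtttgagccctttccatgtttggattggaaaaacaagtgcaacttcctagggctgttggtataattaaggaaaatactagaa
St8sia1 (chr6:142964453-142964702, minus strand): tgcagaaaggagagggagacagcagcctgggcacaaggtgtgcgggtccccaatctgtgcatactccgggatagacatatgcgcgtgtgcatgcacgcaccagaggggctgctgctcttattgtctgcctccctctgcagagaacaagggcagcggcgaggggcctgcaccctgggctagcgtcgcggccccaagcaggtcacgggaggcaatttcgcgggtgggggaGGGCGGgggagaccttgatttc
St6gal1 start farthest downstream (chr16:23290220-23290469, plus strand): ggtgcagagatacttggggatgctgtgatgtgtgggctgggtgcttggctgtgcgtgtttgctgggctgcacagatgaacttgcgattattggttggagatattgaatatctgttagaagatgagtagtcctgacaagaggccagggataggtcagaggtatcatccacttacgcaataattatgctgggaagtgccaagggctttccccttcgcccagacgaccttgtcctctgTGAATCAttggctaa
St8sia4 (chr1:95667595-95667844, minus strand): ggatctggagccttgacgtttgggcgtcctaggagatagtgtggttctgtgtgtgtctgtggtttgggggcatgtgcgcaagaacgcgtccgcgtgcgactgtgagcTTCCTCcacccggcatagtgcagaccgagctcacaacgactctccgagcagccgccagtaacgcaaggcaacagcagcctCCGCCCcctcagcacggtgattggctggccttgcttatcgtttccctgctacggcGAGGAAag

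The motifs searched on both strands were GGGCGG (SP and KLF factors), GAGGAA (a core read by PU.1), TGANTCA (AP-1), CACGTG (E-box) and GCGNGGGCG (EGR factors), the last of which can overlap the first. Of 32851 such windows in the table, 32.7% held GGGCGG, 23.3% GAGGAA, 6.75% TGANTCA, 6.02% CACGTG and 4.7% GCGNGGGCG. The window of the farther St3gal6 start, with 34.8% G and C against a median of 52.4% over all windows, held none of the 5 motifs, while that of its nearer start held GGGCGG 4 times. St8sia1 held GGGCGG once, beginning 22 bases before the start. St8sia4 held GGGCGG once and GAGGAA at 2 places. Among the 3 starts of St6gal1, the start shown held TGANTCA, beginning 15 bases before the start, and the other 2 held no match. The St8sia6 window, with 70.8% G and C, held none. The table gives 1 value per gene, so which start was used in these cells is not known from it, and a match describes the letters only.

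The gene profiles most like that of St8sia6, taken as the smallest root mean square difference over the 4 libraries after centring each gene on its own mean, were those of Asb2, Stra6l and Dscam. Asb2, a subunit of a ubiquitin ligase, was at 11.52 and 11.82 in KO against 12.78 and 12.59 in WT, a root mean square difference of 0.037 from St8sia6. Stra6l, related to a retinol transporter, stood 0.067 away and Dscam, a cell adhesion molecule, 0.078 away. With 4 libraries such likeness is a description only.

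The libraries differed in marker RNA in the same direction as the genotype. A marker is said to have risen or fallen where it passed the test. Among all genes tested, 4.69% passed as higher and 2.23% as lower. All 7 markers of conventional dendritic cells were detected. They held 1.20% and 1.15% of counts in KO against 1.68% and 1.69% in WT, and 6 of the 7 fell. The 5 DC1 markers held 0.0488% and 0.0461% in KO against 0.0572% and 0.0795% in WT, with 2 lower. The 8 NK cell markers all rose, from 0.0188% and 0.0175% of counts in WT to 0.0392% and 0.0483% in KO. Of 9 macrophage markers 4 rose, of 5 monocyte markers 2, of 4 tested T cell markers 3, of 9 erythroid markers 5 and of 4 plasma cell markers 1, with 0 lower in these lists. Of 10 immediate early genes 7 rose, and the list held 0.397% and 0.471% of counts in KO against 0.0522% and 0.156% in WT. Of 5 DC2 markers 2 fell. In limma 0 of 6 plasmacytoid, 6 B cell and 8 neutrophil markers passed (0, 0 and 1 with an unadjusted p under 0.05), nor did the 1 tested platelet and 3 tested endothelial and stromal markers (1 and 1 with such a p). The neutrophil list held 0.769% and 0.699% of counts in KO and 0.722% in WT 1, against 0.254% in WT 2. No listed marker was at 0 in all libraries. The lists with markers that rose or fell moved with the same libraries as St8sia6 and St3gal6, and their part in those differences was not tested. In bulk RNA, fewer cells of a type and less RNA per cell cannot be told apart.

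**Figure D4:**
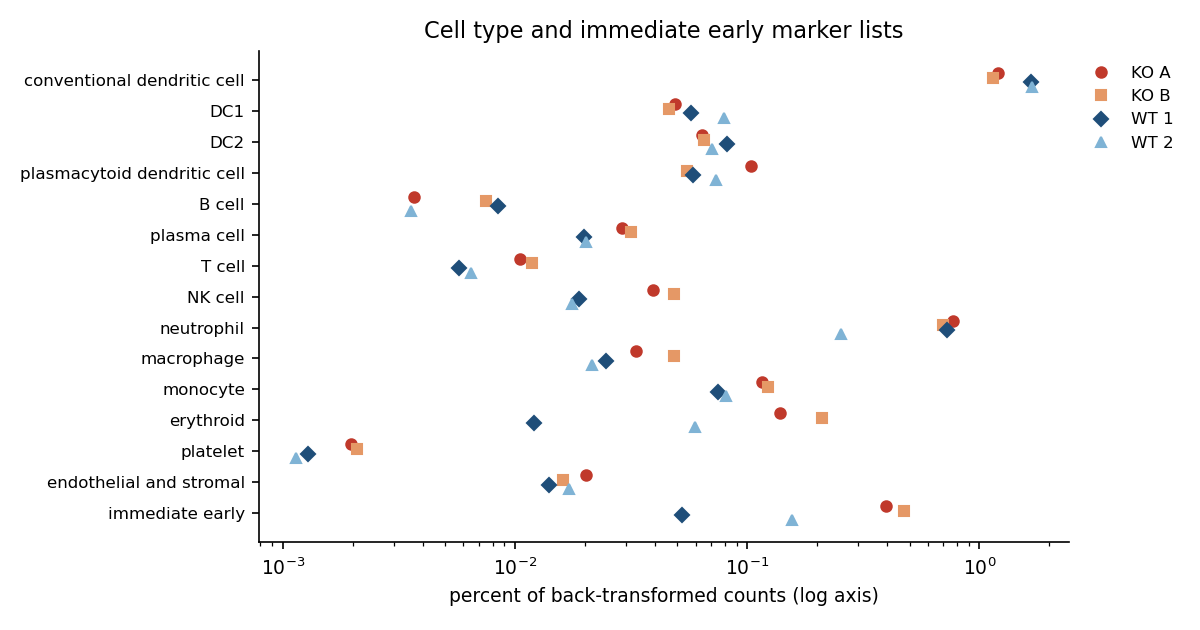
Percent of back-transformed counts (horizontal axis, log scale) held by each marker list (vertical axis) in the 4 libraries, 1 point per library. Conventional dendritic cell markers are lower in KO (1.20% and 1.15% against 1.68% and 1.69%), NK cell markers are higher in KO, and B cell markers follow no genotype order.

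Other genes of the pathway were read from lists of glycan enzymes, carriers and receptors. Over 63 tested rows of 8 lists, 5 were higher, 5 were lower and 53 did not pass, a share of calls to be read against the 6.93% of all genes. The lower calls include Siglece, whose values served above as a check of the KO labels. Among the other sialyltransferases limma called 0 of 3 tested rows (0 with an unadjusted p under 0.05). St6galnac4, which adds alpha2,6-linked sialic acid within O-glycans, was at 10.55 and 10.49 in KO against 10.63 and 10.53 in WT (adjusted p = 0.746). St6galnac6, the one with the smallest p, was at 9.35 and 9.47 in KO against 9.53 and 9.44 in WT (adjusted p = 0.649). St6galnac3 and St6galnac5 were under the filter on low values and were not tested. St6galnac3 was at 8.94 and 9.01 in KO against 8.76 and 8.85 in WT. St6galnac5 was at 8.69 and 8.83 in KO against 8.59 and 8.49 in WT. Both were higher in both KO libraries, at values near the lowest of the table. In the list of sialic acid donor, modification and removal genes, limma called 0 of 11 (3 with an unadjusted p under 0.05). Neu1, the lysosomal sialidase, came nearest at 10.74 and 10.97 in KO against 10.43 and 10.38 in WT (adjusted p = 0.0571).

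The acceptor-building lists held few calls. In N-glycan branching and galactosylation 1 of 13 fell: Man1a, a Golgi mannosidase that trims N-glycans, by 0.49 (adjusted p = 0.0388). In O-GalNAc glycan synthesis limma called 0 of 12 (4 with an unadjusted p under 0.05), with C1galt1, the enzyme that makes the core that St3gal1 caps, at 11.25 and 11.20 in KO against 10.96 and 10.91 in WT (adjusted p = 0.0922). Of 3 tested genes for fucosylation and sulfation 1 fell: Fut4, a fucosyltransferase that acts in making Lewis x structures, by 0.56 (adjusted p = 0.0319), from 10.81 and 10.71 in WT to 10.28 and 10.11 in KO. Fut7, which fucosylates the alpha2,3-sialylated chains that St3gal4 and St3gal6 make, was at 9.28 and 9.41 in KO against 9.30 and 9.26 in WT (adjusted p = 0.706).

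Ganglioside synthesis, which uses St3gal5 and St8sia1, had calls in both directions among 6 tested genes. Ugcg, the glucosylceramide synthase at the head of the pathway, rose by 0.43 (adjusted p = 0.0423), from 11.40 and 11.31 in WT to 11.72 and 11.84 in KO. B4galt6, a lactosylceramide synthase, fell by 0.54 (adjusted p = 0.0322), from 11.16 and 10.98 in WT to 10.51 and 10.56 in KO. B4galt5, the other lactosylceramide synthase, was at 12.05 and 11.77 in KO against 11.51 and 11.58 in WT and did not pass (adjusted p = 0.108).

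Among 9 proteins that carry sialylated glycans, 3 rose and 0 fell, against 4.69% and 2.23% of all genes tested. The median difference of the list was 0.15, beside -0.0017 over all genes tested. Those that rose were Cd24a, a small heavily glycosylated surface protein, by 0.66 (adjusted p = 0.0199), Cd44, the hyaluronan receptor, by 0.58 (adjusted p = 0.0227), and Spn, the mucin-like protein CD43, by 0.53 (adjusted p = 0.0448). Each of these carriers is also found on other leukocytes, among them cells whose marker lists were higher in the KO libraries, and the part of those cells was not tested. Of the Siglec receptors, 1 of 6 tested genes rose and 2 fell, against 4.69% and 2.23% of all genes tested. Cd33 rose by 0.83 (adjusted p = 0.0279), and Siglecg fell by 0.80 (adjusted p = 0.0241) beside the fall of Siglece by 1.32 (adjusted p = 0.0138). Cd22, the receptor for the glycans St6gal1 makes, did not pass (difference -0.74, adjusted p = 0.145).

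**Figure D5:**
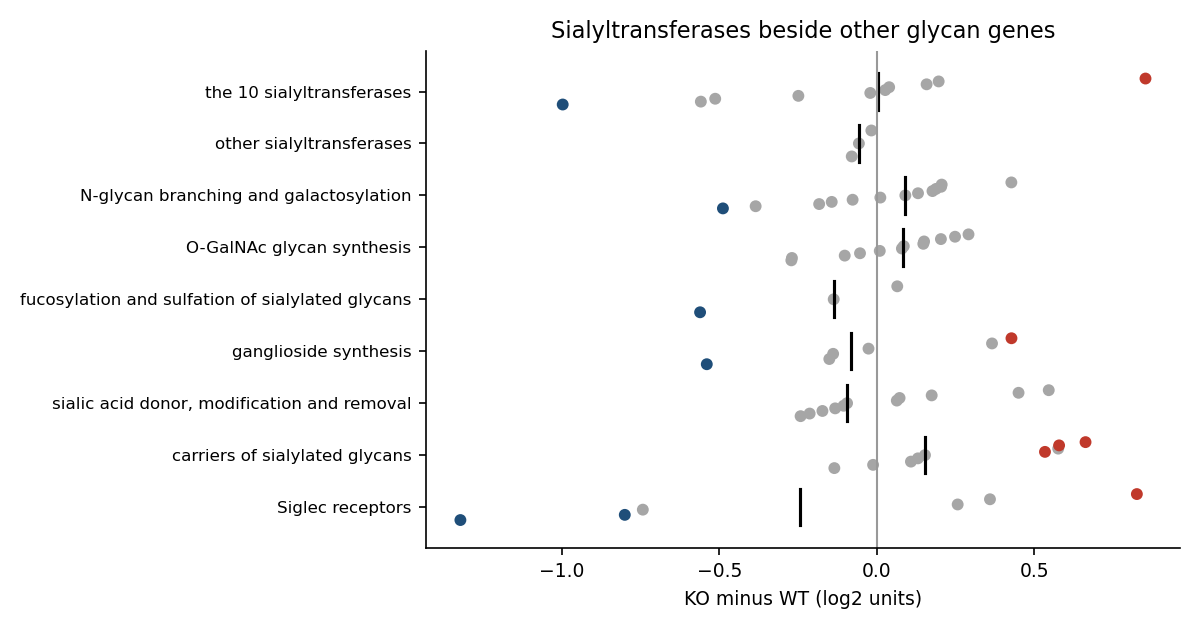
Difference KO minus WT in log2 units (horizontal axis) of each tested gene in the 10 sialyltransferases and 8 other lists (vertical axis), with red for genes that passed as higher, blue for lower, grey for not past the threshold and a black bar at each list's median. The 10 sialyltransferases spread from -0.998 to 0.85 around a median of 0.0028. Of the 9 carriers of sialylated glycans 3 passed, all as higher, against 4.69% of all genes tested.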

How the data were processed

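RNA of 4 libraries (2 KO, 2 WT) was measured by sequencing. The table deposited by the authors holds log2 values of a variance-stabilizing transform, scaled between libraries, which was worked out from the file's name and values. Salmon 1.10.1, DESeq2 and the build GRCm39 are named, per the submitters' processing notes, with no role or order. Which annotation and gene filter were applied is not given in the sources used here. Normalized counts were obtained by undoing the transform from the shared lowest value of 8.04. Gene names and transcript lengths came from GENCODE M21, an older build (17289 of 17300 identifiers matched), and promoter windows from RefSeq.

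Genes whose mean exceeded the lowest value by 1 log2 unit or more (11864) were tested in limma 3.58.1 under R 4.3.3, with an intensity trend, two-sided, with Benjamini-Hochberg adjustment over all genes and a threshold of 0.05. Moderation gave 6.48 degrees of freedom. The fit was tested on simulated data. The members and lists were chosen with earlier results of these data known. All 10 members are described; from each other list at most 4 genes past the threshold are named by smallest p, or else the gene with the smallest p, and further genes named beside a member were chosen after their values were seen. For the member with the smallest p, the 3 tested genes with the nearest profile are named. The name St6galnac2 belongs to more than a single identifier, so no value is given for it. Alternatives were other filters, quantile normalization, log2 of the count plus 1, moderation without trend or robust, and leaving out each library.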

Additional observations from a re-analysis of the deposited data

How the results depend on the processing

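No paired analysis was possible because the KO columns carry other numbers than the KO titles. St8sia6 kept its call under every filter, scaling and moderation tried. The count of sialyltransferases that were higher (1) was 0 with the filter of 2 log2 units, which leaves St3gal6 untested, with quantile normalization and with log2 of the count plus 1. With 1 library left out, 0 to 1 were higher and 0 to 2 were lower: 0 and 0 in limma without KO A or without KO B (4 and 5 of 10 at an unadjusted p under 0.05), and 1 and 2 without WT 2. Over all genes, 557 were higher and 265 lower. Quantile normalization gave 366 and 282, which lowers the higher share of calls from 67.8% to 56.5%. With 1 library left out, 0 to 620 were higher and 0 to 200 lower, with 0 and 0 without KO A, 0 and 3 without KO B, and 167 lower without WT 1. Of the pathway genes, 5 were higher and 5 lower; 3 were higher with quantile normalization, and 0 to 5 higher and 0 to 7 lower with 1 library left out (0 and 0 without KO A or KO B, 2 lower without WT 1, 3 higher without WT 2). The sign turned for St3gal2 with quantile normalization (-0.0035) and without KO B (-0.066), for St3gal3 without KO A (-0.011), and for St8sia4 without KO B (0.0047) and without WT 2 (0.019). With 1 library left out, St3gal2 ran from -0.066 to 0.119, St3gal3 from -0.011 to 0.0891 and St8sia4 from -0.061 to 0.019. Apart from the settings that left out genes or libraries, the cause of these shifts was not tested. With 2 libraries a group, the smallest two-sided exact permutation p for a single gene is 0.333, so each call rests on the spread that limma shares across genes.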
